A study of Rattus norvegicus with 6 samples.

Results

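The neural miRNAs described here are the rat miRNAs miR-124, miR-9a, miR-9b, miR-128, miR-137, and miR-129, with both arms of each precursor. Members were found by matching names, and 14 of the 910 names in the miRNA count table matched. A hairpin precursor is cut into a 5p and a 3p product, and the arm is part of the name. The rows rno-miR-129-1-3p and rno-miR-129-2-3p held the same count in each of the 6 libraries, so they were treated as 1 measurement, which leaves 13 distinct rows.

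Small RNA was sequenced in 6 libraries from lens capsules of Sprague Dawley rat pups, 3 per group. Pups of the control group received saline under the skin of the nape, and those of the Na2SeO3 group received sodium selenite (Na2SeO3) there at 20 μmol/kg. Both were given on days 3, 5, and 7 of the study's schedule, which are not stated to be ages of the pups. The lenses were taken on day 15 of the experiment. Per the study's methods, RNA came from 6 lenses in all, of 3 control and 3 Na2SeO3 rats. Selenite given to young rats is a chemical model of nuclear cataract and carries no genetic change, and the control libraries bear the name WT in the labels. The summed counts ranged from 1806596 to 2829903 in the control libraries and from 663096 to 968151 in the Na2SeO3 libraries, so depth and group cannot be told apart.

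miRNAs are short RNAs that bind partly matching mRNAs through bases 2 to 8, the seed, and lower the output of those mRNAs. miR-124 is the classic miRNA of mature neurons, where it holds down transcripts of other cell types. miR-9 acts in neural progenitors and in the timing of neurogenesis, miR-128 and miR-137 are enriched in brain neurons, and miR-129 is abundant in brain and has been tied to neuronal excitability. Several of them are also known from the retina, a neural tissue that lies in the same eye. The lens itself is an epithelial tissue without neurons, although lens cells are known to share part of the neuronal programme of gene expression. In a bulk sample, fewer cells of a type and less RNA per cell cannot be told apart.

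RefSeq (GRCr8) listed a mature sequence for 12 of the 14 names. The 2 without one were rno-miR-124-3p and rno-miR-124-5p, so the comparison of seeds does not cover miR-124. The sequences below are those of the other well-counted members, 5′ to 3′, with the seed in capitals.
rno-miR-9a-5p: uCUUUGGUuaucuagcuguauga
rno-miR-9a-3p: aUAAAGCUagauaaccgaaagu
rno-miR-128-3p: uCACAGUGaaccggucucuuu
rno-miR-129-5p: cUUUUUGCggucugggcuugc
rno-miR-129-1-3p: aAGCCCUUaccccaaaaag
rno-miR-129-2-3p: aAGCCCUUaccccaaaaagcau
The last pair is shown because its names had identical counts. The 19 bases of rno-miR-129-1-3p are the first 19 of the 22 bases of rno-miR-129-2-3p. The other 4 sequences each had a seed of their own. Of the 763 rat names in the table, 686 had a mature sequence, and none outside the neural miRNAs shared a seed with any of these 12.

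The rno-miR-9b sequences are shown for their relation to miR-9a.
rno-miR-9b-5p: uUCGGUUAucuagcuuuau
rno-miR-9b-3p: aUACAGCUagauaaccaa
The 19 bases of rno-miR-9b-5p are the reverse complement of a stretch of rno-miR-9a-3p, and the 18 bases of rno-miR-9b-3p are that of a stretch of rno-miR-9a-5p. Counts for both were close to 0, as given below.

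In GRCr8, rno-miR-9a-5p has 3 genes. They are Mir9-1 at chr2:175974986-175975008, Mir9-2 at chr2:15933307-15933329 within Mir9-2hg, and Mir9-3 at chr1:142849415-142849437 within the long non-coding RNA Mir9-3hg, all on the plus strand. The gene Mir128-1 places rno-miR-128-3p at chr13:42251933-42251953 within the bounds of the protein-coding gene R3hdm1, and Mir128-2 places it at chr8:120963807-120963827 on the minus strand within those of Arpp21. For rno-miR-129-5p the positions are chr4:58589716-58589736 (Mir129-1) and chr3:100657448-100657468 on the minus strand (Mir129-2). A count for rno-miR-9a-5p, rno-miR-128-3p, or rno-miR-129-5p therefore sums over several genes. These positions come from the annotation and not from the count table, whose build is not given in the sources used here.

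The neural miRNAs took a clear share of the reads counted in these lens capsules. They made up 3.65% (95% Clopper-Pearson interval 3.62 to 3.67), 3.61% (3.59 to 3.64), and 3.66% (3.63 to 3.69) of all counts in control libraries 1 to 3. In Na2SeO3 libraries 1 to 3 the shares were 5.31% (5.26 to 5.37), 4.67% (4.62 to 4.71), and 5.07% (5.02 to 5.12). All Na2SeO3 libraries lay above all control libraries, with means of 3.64% ± 0.03 and 5.02% ± 0.33 (SD, n = 3 each; p = 0.1 in a two-sided exact permutation test, which cannot go lower with 3 against 3). No molecular identifiers were counted, so reads are not independent molecules and the intervals hold counting error alone.

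That difference depended on the scale and on 1 miRNA. TMM scaling chooses effective library sizes under the assumption that the bulk of miRNAs is unchanged, and CPM is the count brought to a common effective size. On that scale the summed level was 35646, 38761, and 42807 CPM in the control libraries. It was 51301, 41011, and 48943 CPM in the Na2SeO3 libraries, so the groups overlapped (means 39071 ± 3591 and 47085 ± 5391, SD, n = 3 each; p = 0.2 by exact permutation). Without rno-miR-9a-5p the direction turned, with means of 11023 ± 359 CPM in the control group and 9424 ± 630 CPM in the Na2SeO3 group (SD, n = 3 each; p = 0.1 by exact permutation). The share of the summed level that came from rno-miR-9a-5p was 68.2%, 71.4%, and 75.2% in the control libraries and 82.9%, 75.5%, and 80.7% in the Na2SeO3 libraries.

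By level the 13 distinct rows fell into 7 that were well counted and 6 that were hardly counted. Mean level over the 6 libraries, in TMM-scaled CPM, was 32855 for rno-miR-9a-5p, 4423 for rno-miR-129-5p, 3161 for rno-miR-124-3p, 1578 for rno-miR-128-3p, 553 for rno-miR-9a-3p, 252 for rno-miR-129-1-3p, and 252 for rno-miR-124-5p. rno-miR-9a-5p was the 5th to 10th most counted name in every library. Neighbours in this order were separated in all 6 libraries except at 2 places. rno-miR-129-5p was above rno-miR-124-3p in 5 of 6 libraries, and rno-miR-129-1-3p was above rno-miR-124-5p in 3 of 6. Mature miRNAs are of nearly equal length, so no length correction was made, and differences in how well each sequence is captured in a library were not measured.

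**Figure D1:**
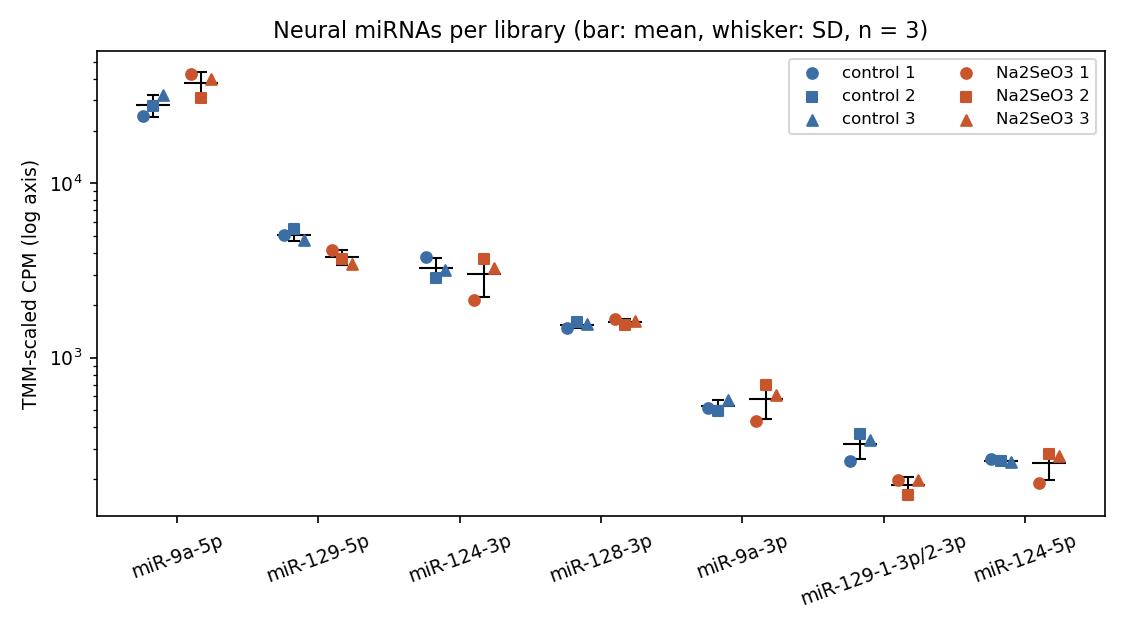
TMM-scaled CPM (log axis) of the 7 well-counted neural miRNAs, with 1 point per library, the group mean as a bar, and the SD as a whisker (n = 3). The miR-9a-5p points sit far above the rest, both miR-129 rows are lower in all 3 Na2SeO3 libraries, and the points of miR-124-3p overlap.

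The 6 other rows fell below the low-count filter of the reported fit. rno-miR-137-3p was counted 10, 9, and 3 times in control libraries 1 to 3 and 1, 3, and 1 times in Na2SeO3 libraries 1 to 3. Against a limit of 3 counts, which equals 1.04 to 1.94 CPM in the control libraries and 2.72 to 4.37 CPM in the Na2SeO3 libraries, it was at or above the limit in all control libraries and in 1 Na2SeO3 library. The other 5 (rno-miR-137-5p, rno-miR-128-1-5p, rno-miR-128-2-5p, rno-miR-9b-5p, and rno-miR-9b-3p) had at most 2 counts in any library and 3, 3, 3, 3, and 2 counts in total. In the fit with no filter none of the 6 passed, with edgeR adjusted p-values from 0.413 to 0.990 over 725 names and rno-miR-137-3p at -0.97 in log2 fold change (adjusted p = 0.521, with 0.86 as its standard error). A difference between the groups was not detectable at this depth. Whether counting used the strand is not stated, so the rno-miR-9b counts are uncertain as to their strand.

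The main question of the design is which miRNAs differ between the Na2SeO3 group and the control group. A DEmiRNA (differentially expressed miRNA) had to pass 0.05 on the adjusted p-value of edgeR's quasi-likelihood fit and lie beyond 1 in log2 fold change, higher or lower. None of the 7 neural miRNAs tested did, against 56 (16.4%) of all 341 miRNAs tested, 39 higher and 17 lower in the Na2SeO3 group. That split was 53 and 10 with library size only and 32 and 22 with upper-quartile scaling. On the adjusted p-value alone, 3 of the 7 passed (118 of 341, or 34.6%, over all miRNAs). Of these, 2 were lower in the Na2SeO3 group (13.8% of all miRNAs tested were called lower), both of them miR-129 arms. The other, rno-miR-9a-5p, was higher (20.8% of all were called higher). At an unadjusted p-value of 0.05 the number was also 3 of 7, against 151 (44.3%) of all 341. TMM-scaled CPM did not overlap between the groups for 2 of the 7, both miR-129 arms, against 46.3% of all miRNAs tested. With library size only, rno-miR-129-5p overlapped, and rno-miR-9a-5p and rno-miR-128-3p did not. The share over all miRNAs is not given on that scale. The median log2 fold change of the 7 was -0.04, and that of all 341 was 0.08.

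**Figure D2:**
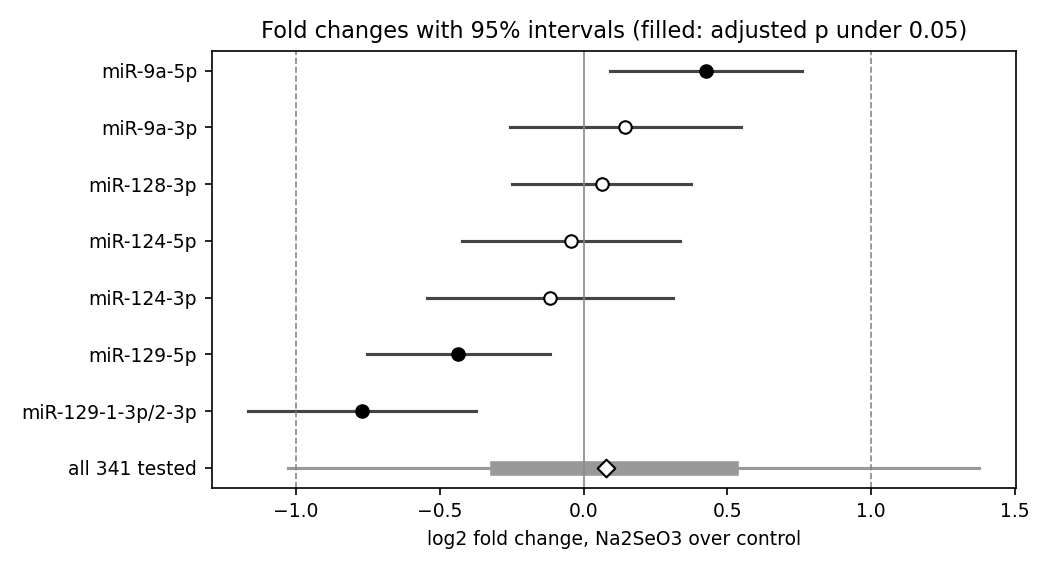
Log2 fold change (Na2SeO3 over control) of the 7 neural miRNAs with 95% intervals from edgeR, filled where the adjusted p-value was under 0.05. The grey row gives the median (0.08), quartiles (-0.30 and 0.51), and 5% and 95% points (-1.03 and 1.38) of all 341 miRNAs tested, and no point of a neural miRNA reaches the dashed lines at a log2 fold change of 1, although the interval of miR-129-1-3p (-1.17 to -0.38) crosses the lower one.

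Both arms of miR-129 were lower in the Na2SeO3 group. The 3p row (rno-miR-129-1-3p and rno-miR-129-2-3p) stood at 254, 363, and 337.8 CPM in control libraries 1 to 3 and at 198, 162, and 199 CPM in Na2SeO3 libraries 1 to 3, so the groups were apart. Its log2 fold change was -0.77 (standard error 0.18, edgeR adjusted p = 0.0061 by the Benjamini-Hochberg method over 341 miRNAs). It passed the adjusted p-value in all 15 alternative fits, with log2 fold changes from -0.91 to -0.57.

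The 5p arm, the main product of miR-129, stood at 5036, 5496, and 4723 CPM in control libraries 1 to 3. In Na2SeO3 libraries 1 to 3 it stood at 4167, 3669, and 3444 CPM, again below every control library. Its log2 fold change was -0.44 (standard error 0.15, adjusted p = 0.0356, edgeR). This call was less stable. The adjusted p rose to 0.228 when libraries were scaled to their size only, and the groups then overlapped. On that scale control library 3 was at 4040 CPM and Na2SeO3 library 1 at 4316 CPM. The adjusted p was between 0.0628 and 0.132 when control library 1, 2, or 3 or Na2SeO3 library 2 or 3 was left out. A block on the replicate number gave 0.0695.

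rno-miR-9a-5p stood at 24301, 27674, and 32170 CPM in control libraries 1 to 3 and at 42507, 30957, and 39519 CPM in Na2SeO3 libraries 1 to 3. The groups overlapped, since Na2SeO3 library 2 lay below control library 3. The log2 fold change was 0.43 (standard error 0.15, adjusted p = 0.0478, edgeR), a 1.34-fold difference just inside the threshold. It passed in 5 of 15 alternative fits. With library size only the groups did not overlap. They stood at 24859, 25778, and 27517 CPM in control libraries 1 to 3 and at 44024, 35222, and 40933 CPM in Na2SeO3 libraries 1 to 3 (adjusted p = 0.0019, edgeR). The strength of the call thus depended on the scaling. Leaving out any library other than Na2SeO3 library 2 ended the call, with adjusted p-values from 0.0615 to 0.205, as did RLE size factors (0.0650), upper-quartile scaling (0.0961), DESeq2 (0.0570), no low-count filter (0.199), and the replicate number as a block (0.0870). The log2 fold change stayed positive in all 15, from 0.31 to 0.62.

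The 3p arm of miR-9a, cut from the same precursors, stood at 513, 492, and 573 CPM in control libraries 1 to 3 and at 431, 700, and 609 CPM in Na2SeO3 libraries 1 to 3. The lowest and the highest value were both in the Na2SeO3 group. Its log2 fold change was 0.15 (95% interval -0.26 to 0.55, adjusted p = 0.597, edgeR), an interval that holds both 0 and the 0.43 of the 5p arm.

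miR-124 showed no difference past the test on either arm. rno-miR-124-3p stood at 3795, 2882, and 3192 CPM in control libraries 1 to 3 and at 2141, 3687, and 3271 CPM in Na2SeO3 libraries 1 to 3. Na2SeO3 library 1 was the lowest of the 6, and the other 2 lay within the control range. The log2 fold change was -0.12 (95% interval -0.55 to 0.31, adjusted p = 0.709, edgeR). With library size only as the scale it was 0.08, and without Na2SeO3 library 1 it was 0.05.

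rno-miR-124-5p stood at 262, 255, and 251 CPM in control libraries 1 to 3 and at 191, 280, and 272 CPM in Na2SeO3 libraries 1 to 3. The log2 fold change was -0.04 (95% interval -0.42 to 0.34, adjusted p = 0.862, edgeR), and it was 0.15 with library size only and 0.08 without Na2SeO3 library 1. The SD of this arm was 5.63 CPM in the control group and 49.2 CPM in the Na2SeO3 group after TMM scaling, and 26.8 and 61.8 CPM with library size only.

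rno-miR-128-3p was the steadiest of the 7 after TMM scaling. It stood at 1480, 1594, and 1557 CPM in control libraries 1 to 3 and at 1661, 1551, and 1627 CPM in Na2SeO3 libraries 1 to 3, a ratio of 1.12 between the highest and the lowest library. The SD of its log2 CPM over the 6 libraries was 0.06, the 3rd smallest of 341. The log2 fold change was 0.06 (95% interval -0.25 to 0.38, adjusted p = 0.787, edgeR), and it was -0.02 with upper-quartile scaling and 0.26 with library size only.

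Scaling moved all of these values together. With library size only, the median over the 341 miRNAs tested was 0.27 in log2 fold change instead of 0.08, a shift of 0.19. On that scale the neural miRNAs were at 0.62 for rno-miR-9a-5p, 0.35 for rno-miR-9a-3p, -0.25 for rno-miR-129-5p, and -0.57 for rno-miR-129-1-3p.

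Libraries of a group were then compared with their own group mean, to see which neural miRNAs deviated together. In the Na2SeO3 group, rno-miR-124-3p, rno-miR-124-5p, and rno-miR-9a-3p shared 1 pattern. Their log2 CPM lay 0.47, 0.35, and 0.40 below the group mean in Na2SeO3 library 1. In Na2SeO3 library 2 the same 3 miRNAs lay above it by 0.32, 0.20, and 0.30, and in Na2SeO3 library 3 by 0.15, 0.16, and 0.10. rno-miR-9a-5p lay on the opposite side in libraries 1 and 2, at 0.19 and -0.27, and on the same side in library 3, at 0.08. Scaling to library size only left the highest and the lowest of the 3 libraries in place for these 4 miRNAs, with deviations of -0.51, -0.40, -0.44, and 0.14 in Na2SeO3 library 1 for rno-miR-124-3p, rno-miR-124-5p, rno-miR-9a-3p, and rno-miR-9a-5p. Na2SeO3 library 1 was also the library with the fewest counts, 663096, and the part of depth in this pattern was not tested.

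Control libraries differed less in these 3 miRNAs on the TMM scale. The largest deviation was 0.22, of rno-miR-124-3p in control library 1, and the deviations of rno-miR-124-5p were 0.03, -0.01, and -0.03 in the 3 control libraries. With library size only, these were 0.35 for rno-miR-124-3p and 0.17, -0.01, and -0.16 for rno-miR-124-5p. Over the 6 libraries both arms of miR-124 lay on the same side of their group mean 6 times of 6, and rno-miR-124-3p and rno-miR-9a-3p did so 4 times. rno-miR-124-3p lay on the same side as rno-miR-128-3p, rno-miR-129-5p, or rno-miR-129-1-3p only 1 time of 6 each. rno-miR-128-3p and rno-miR-129-1-3p lay on the same side 6 times of 6, and rno-miR-9a-5p joined each of them 5 times, although the deviations of rno-miR-128-3p were all within 0.06. These counts depended on the scaling. With library size only, rno-miR-128-3p and rno-miR-129-1-3p shared their side in 2 of 6 libraries, and rno-miR-9a-5p shared its side with them in 0 and 4. On that scale rno-miR-124-3p shared its side with rno-miR-128-3p in 4, with rno-miR-129-5p in 3, and with rno-miR-129-1-3p in 2. Both arms of miR-124 still shared theirs in 6 of 6. The deviations within a group of 3 sum to 0 and share the scaling, so these are descriptions of 6 libraries without a test.

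**Figure D3:**
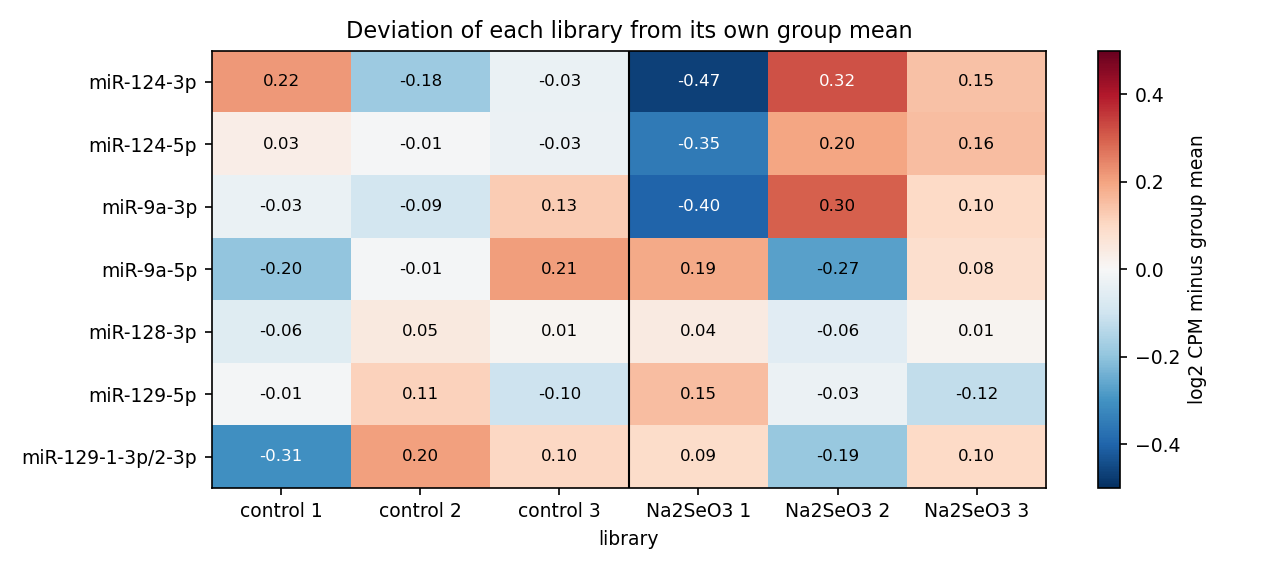
Log2 CPM of each library minus the mean of its own group for the 7 neural miRNAs (red above, blue below). In Na2SeO3 library 1, miR-124-3p, miR-124-5p, and miR-9a-3p are at -0.47, -0.35, and -0.40, whereas miR-9a-5p is at 0.19.

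Arms of the same precursor give a ratio that does not depend on scaling. The 3p arm made up 2.07% (95% Clopper-Pearson interval 1.96 to 2.17), 1.75% (1.64 to 1.86), and 1.75% (1.64 to 1.87) of miR-9a counts in control libraries 1 to 3. In Na2SeO3 libraries 1 to 3 it made up 1.004% (0.89 to 1.12), 2.21% (2.06 to 2.37), and 1.52% (1.40 to 1.65). Libraries differed by more than counting error within both groups, and the Na2SeO3 values lay on both sides of the control range (means 1.85% ± 0.18 and 1.58% ± 0.61, SD, n = 3 each; two-sided exact permutation, p = 0.5, adjusted p = 0.6 over 3 miRNAs).

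The 5p arm of miR-124 made up 6.46%, 8.13%, and 7.29% of miR-124 counts in control libraries 1 to 3 and 8.18%, 7.05%, and 7.67% in Na2SeO3 libraries 1 to 3, with intervals that overlapped between the groups (exact permutation test, p = 0.6, adjusted p = 0.6). Na2SeO3 library 1, low in both arms of miR-124, was thus not unusual in their ratio. The 3p row of miR-129 made up 4.80%, 6.19%, and 6.68% of miR-129 counts in control libraries 1 to 3 and 4.54%, 4.24%, and 5.46% in Na2SeO3 libraries 1 to 3. The groups overlapped here too (means 5.89% ± 0.97 and 4.75% ± 0.64, SD, n = 3 each; p = 0.2 by exact permutation, adjusted p = 0.6), so the larger fold change of the 3p row than of the 5p arm was not shown to be a difference between the arms. The exact permutation test of an arm share could not go below p = 0.1.

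**Figure D4:**
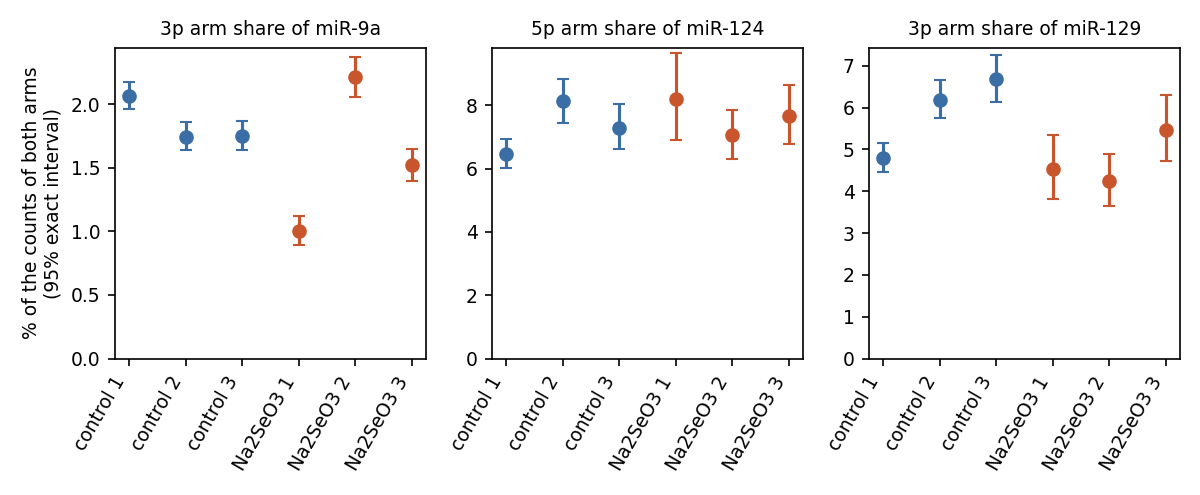
Share of the less counted arm in the counts of both arms (%, axis from 0), with 1 point per library and 95% exact intervals for counting error. For miR-9a the 3p share in Na2SeO3 library 1 is 1.004%, below every other library, and for miR-124 the intervals of the groups overlap.

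The rat miRNAs whose profile over the 6 libraries was most like the mean of the 7 neural miRNAs were found by the root-mean-square difference of centred log2 CPM, among 318 others. They were rno-miR-361-5p (0.06), rno-miR-149-5p (0.07), rno-miR-148b-3p (0.07), rno-miR-674-3p (0.09), and rno-miR-26b-5p (0.10), where the median over the 318 was 0.34. The mean profile of the neural miRNAs is nearly flat, and all 5 were flat as well, with log2 fold changes from -0.17 to -0.01. The profiles of rno-miR-124-3p, rno-miR-9a-5p, and rno-miR-129-5p, members chosen after seeing the values, were compared in the same way. rno-miR-455-3p was nearest to rno-miR-124-3p (0.12), rno-miR-378a-3p to rno-miR-9a-5p (0.09), and rno-miR-361-3p to rno-miR-129-5p (0.09). The likeness takes in the difference between the groups, so the fold changes of these 3 are not separate results.

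Among other neuron-enriched miRNAs, 10 of a list of 21 rows could be tested. Of these, 5 were called lower and 1 higher in the Na2SeO3 group on the adjusted p-value, where 13.8% and 20.8% of all miRNAs tested were, and the median log2 fold change was -0.47. The lower ones included both arms of miR-132, an activity-induced miRNA of neurons, with rno-miR-132-5p at -1.53 (adjusted p = 3.84e-05) and rno-miR-132-3p at -1.37 (adjusted p = 1.67e-04, edgeR). rno-miR-7b (-1.36), rno-miR-212-5p (-1.34), and rno-miR-7a-5p (-0.69) were the others. The 5 called lower thus carry only the names miR-132, miR-212, miR-7a, and miR-7b. The 1 called higher was rno-miR-488-3p, at 0.56 (adjusted p = 0.0436, edgeR). Among the rows not called, rno-miR-383-5p (0.42, adjusted p = 0.128), rno-miR-138-5p (0.41, adjusted p = 0.351), and rno-miR-7a-1-3p (0.16, adjusted p = 0.706, edgeR) were higher. The most counted member of this list after miR-7a-5p, rno-miR-218a-5p of motor neurons, stood at 6584 ± 819 CPM in the control group and 5526 ± 542 CPM in the Na2SeO3 group (SD, n = 3 each; adjusted p = 0.236, edgeR).

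Markers of other tissues were read against the same shares, 13.8% of all miRNAs tested called lower and 20.8% called higher. The lens and eye surface list (miR-184, miR-204, miR-205) was high in all libraries. Its summed level was 90025 to 104264 CPM in the control group and 44705 to 56048 CPM in the Na2SeO3 group, with 2 of 4 tested called lower. They were rno-miR-184, with group means of 81459 and 37254 CPM, and rno-miR-205, with 1314 and 688 CPM. Neither rno-miR-204-5p (log2 fold change -0.40, adjusted p = 0.0869, edgeR) nor rno-miR-204-3p (-0.24, adjusted p = 0.411, edgeR) passed. The muscle list was at 7264 to 8812 and 13508 to 14614 CPM (4 of 6 called higher, with rno-miR-499-5p at -0.49, adjusted p = 0.068, edgeR), the oligodendrocyte list at 69.2 to 79.1 and 138.3 to 152.5 CPM (1 of 3 called higher), and the erythroid list at 254 to 306 and 404 to 518 CPM (1 of 3 called higher). The erythroid call was rno-miR-486, with group means of 137.3 and 299.8 CPM, whereas rno-miR-451-5p stood at 127.9 and 133.1 CPM (log2 fold change 0.06, adjusted p = 0.833, edgeR) and rno-miR-144-5p at 5.94 and 8.15 CPM (0.41, adjusted p = 0.526, edgeR). The oligodendrocyte call was rno-miR-219a-2-3p, with group means of 4.13 and 78.4 CPM. The other members tested did not pass, with rno-miR-338-3p at 24.95 and 12.4 CPM (log2 fold change -0.93, adjusted p = 0.0519, edgeR) and rno-miR-338-5p at 39.7 and 46.9 CPM (0.25, adjusted p = 0.436, edgeR). The sensory cell cluster miR-96, miR-182, and miR-183, which marks photoreceptors and hair cells, ranged from 144898 to 195745 CPM and from 186339 to 195749 CPM, and the leukocyte list from 159 to 198 CPM and from 132.5 to 188 CPM, with none of 4 and none of 5 called. Of the markers listed, 1 erythroid, 4 muscle, and 2 other neuron-enriched rows were at 0 in all libraries. The part of these tissues in the levels of the neural miRNAs was not tested.

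**Figure D5:**
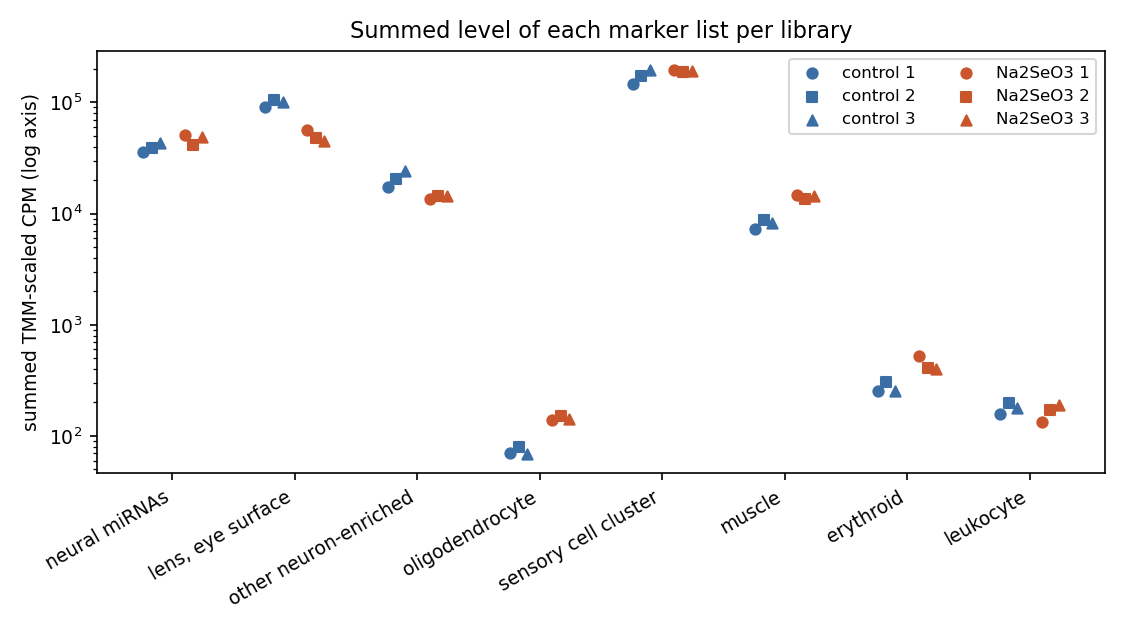
Summed TMM-scaled CPM (log axis) of the neural miRNAs and of 7 marker lists, with 1 point per library. The neural points overlap between the groups, the lens and other neuron-enriched points are lower in all 3 Na2SeO3 libraries, and the muscle, oligodendrocyte, and erythroid points are higher.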

How the data were processed

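Small RNA libraries from lens capsules of 3 control and 3 Na2SeO3 rats were analysed. The authors deposited raw read counts per miRNA name, made from reads trimmed by Cutadapt and Fqtrim, inspected in FastQC, and compared with the Ensembl rat genome by miRDeep (HISAT2 is named beside it without saying for which libraries). Versions and genome build are not given in the sources used here. Names too rarely counted were removed with filterByExpr (minimum count 10), and the rest were scaled with TMM and tested with edgeR's quasi-likelihood test (R 4.3.3, edgeR 4.0.16, DESeq2 1.42.0), adjusted over 341 miRNAs. Log2 CPM used a prior count of 2. The procedure was tested on simulated data. Values with 1 number per library were compared by two-sided exact permutation tests. The neural miRNAs and the 7 marker lists were chosen with earlier results of these data known. All names matching the neural pattern are given, with the 5 names nearest to their mean profile and any name sharing a seed. Alternatives were other scalings, filters, DESeq2, rat names only, a replicate block, and each library left out, and identical rows kept once and arm shares of miR-124 and miR-129 were added after seeing the data. mRNA libraries are not analysed here.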

Additional observations from a re-analysis of the deposited data

Results flagged for a closer look

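A miR-124 name of another species carried counts. gga-miR-124a-3p was counted 13, 6, and 4 times in control libraries 1 to 3 and 8, 12, and 13 times in Na2SeO3 libraries 1 to 3. It drew attention because its level, 12.3 ± 1.79 CPM in the Na2SeO3 group, lay above that of the control group, 3.39 ± 0.98 CPM (SD, n = 3 each), in a row that no comparison of neural miRNAs used. The log2 fold change was 1.77 (standard error 0.45, edgeR adjusted p = 0.0085), and with 1 library left out the adjusted p reached 0.0571. Over the 14 edgeR and DESeq2 fits that held this row, the highest adjusted p was 0.0596. The raw counts overlapped between the groups. A limit of 3 counts equals 1.04 to 1.94 CPM in the control libraries and 2.72 to 4.37 CPM in the Na2SeO3 libraries. The part of depth was not tested. rno-miR-124-3p, with between 1470 and 10986 counts per library, did not share this difference (log2 fold change -0.12, adjusted p = 0.709). The difference between the names was not tested.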

How the results depend on the processing

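None of the 7 well-counted neural miRNAs became a DEmiRNA in any of the 15 alternative fits, nor did the 6 others in the fit with no filter. Over these fits between 42 and 63 of all miRNAs tested were DEmiRNAs. The count of neural miRNAs past the adjusted p-value alone, 3 in the reported fit, was 1 under a replicate block and 1 to 2 with each library left out. With the block 49 DEmiRNAs were called. The deviations of same-numbered libraries correlated across 341 miRNAs at -0.17, -0.18, and -0.26, so none of these correlations was positive. They cannot decide whether the numbers pair the libraries, because differently numbered libraries were not compared and deviations within a group sum to 0. The paper uses the word paired for its comparison but does not state which rats were matched. Pairing was not tested further. Log2 fold changes near 0 changed sign in rno-miR-124-3p (0.078 with library size only; -0.29 to 0.048 with each library left out, positive without Na2SeO3 library 1), rno-miR-124-5p (0.15; -0.14 to 0.076, likewise), rno-miR-128-3p (-0.022 with upper-quartile scaling, -0.015 with no filter), and rno-miR-9a-3p (-0.011 to 0.29 with each library left out, negative without Na2SeO3 library 2). The cause was not tested. The summed level differed by 8014 CPM between the groups, and by -1599 CPM without rno-miR-9a-5p. With each library left out, the difference ranged from -0.593 to 0.0103 percentage points for the miR-9a 3p share and from -0.0768 to 0.756 for the miR-124 5p share. For the miR-129 3p share, -1.14 in the reported comparison, it ranged from -1.68 without control library 1 to -0.747 without control library 3. The 6 hardly counted rows had few counts in all libraries, and the part of depth in this was not tested.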
